A study of Sus scrofa with 31 samples.

Results

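ITGAM and PTPRC, the pig genes of the cell surface proteins CD11b and CD45 by which microglia were sorted, were followed through 31 RNA-seq samples together with ITGB2 and ITGAL, the genes of the partner chain of CD11b and of a related leukocyte integrin chain. Members were taken from 5 gene names by the Ensembl identifiers that the study's supplementary tables pair with them. ITGAM, PTPRC, ITGB2 and ITGAL had such an identifier, and ITGAX, the gene of CD11c, had none there and was left out, so that 4 of the 31907 genes counted are described.

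By the tag numbers in their titles the samples came from 15 male, uncastrated piglets of 24 to 26 days of age, 1 per litter, born to Large White × Landrace sows inseminated with pooled Danish Duroc semen. They had been anesthetized for imaging, were born into either standard or freer housing (the labels do not give which), and are named here by tag number. Microglia were dissociated on ice from cerebellum, frontal cortex and hippocampus (8 pigs each) and sorted as cells with high CD11b and low CD45. Alveolar macrophages (3 pigs) were sorted from lung lavage by the surface antigen ADGRE1 and low CD163, with no gate on CD11b or CD45, and hippocampal tissue (4 pigs) was extracted whole. There was no treatment, so that the comparisons are between cell types, between tissue and sorted cells, and between regions, and 9 of the pigs gave more than 1 sample, 7 of them microglia of more than 1 region. The study's methods give other numbers of pigs, and the tag numbers were used here.

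Integrins are pairs of an alpha and a beta chain that hold cells to matrix and to other cells. ITGB2 encodes CD18, the beta chain shared by the leukocyte integrins. It pairs with CD11b (ITGAM) in complement receptor 3, which takes up complement-coated particles, and with CD11a (ITGAL) in LFA-1, which binds ICAMs on other cells. PTPRC encodes CD45, a transmembrane tyrosine phosphatase of nucleated blood cells that acts on Src family kinases. Resting microglia are known for high CD11b with low CD45 at the surface, which separates them from blood-derived leukocytes in a sort.

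On the Sscrofa11.1 assembly, with the positions of RefSeq annotation release 106, ITGAM (ENSSSCG00000007754) lies on the minus strand of chromosome 3 from 17216719 to 17272134. ITGAL (ENSSSCG00000007797) lies on the same strand of chromosome 3 from 17817785 to 17858057. PTPRC (ENSSSCG00000010908) is on the plus strand of chromosome 10 from 21482984 to 21601627, and ITGB2 (ENSSSCG00000025133) on the minus strand of chromosome 13 from 207514281 to 207544108. In the annotation ITGAM overlaps the noncoding gene LOC110259903 and ITGB2 the pseudogene LOC106508046. Whether the authors' counting used the strand is not given in the sources used here, so that reads from overlapping genes cannot be told apart.

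The promoter windows of the 4 genes, 250 bases before to 50 after the annotated start, are shown because all 4 genes were counted far more in sorted microglia than in whole tissue. They were read 5′ to 3′ on the gene's strand from the RefSeq genome, with capitals marking TTCCTC, the reverse complement of GAGGAA, a purine-rich core to which the myeloid factor PU.1 binds.
ITGB2: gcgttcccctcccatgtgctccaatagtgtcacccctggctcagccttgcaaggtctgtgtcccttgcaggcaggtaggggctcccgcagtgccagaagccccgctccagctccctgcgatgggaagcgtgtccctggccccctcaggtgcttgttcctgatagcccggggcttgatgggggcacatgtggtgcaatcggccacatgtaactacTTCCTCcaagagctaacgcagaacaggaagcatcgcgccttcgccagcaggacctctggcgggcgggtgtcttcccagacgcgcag
ITGAL: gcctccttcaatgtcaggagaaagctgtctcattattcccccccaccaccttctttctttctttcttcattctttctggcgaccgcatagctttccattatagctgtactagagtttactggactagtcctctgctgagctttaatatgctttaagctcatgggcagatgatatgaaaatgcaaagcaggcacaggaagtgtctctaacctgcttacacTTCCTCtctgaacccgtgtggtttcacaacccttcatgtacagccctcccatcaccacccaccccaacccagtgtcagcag
ITGAM: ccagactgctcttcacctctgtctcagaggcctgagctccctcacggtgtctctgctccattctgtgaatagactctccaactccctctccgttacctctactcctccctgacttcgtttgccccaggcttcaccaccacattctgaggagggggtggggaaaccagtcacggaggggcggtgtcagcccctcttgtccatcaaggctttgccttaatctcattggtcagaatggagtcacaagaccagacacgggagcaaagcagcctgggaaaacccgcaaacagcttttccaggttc
PTPRC: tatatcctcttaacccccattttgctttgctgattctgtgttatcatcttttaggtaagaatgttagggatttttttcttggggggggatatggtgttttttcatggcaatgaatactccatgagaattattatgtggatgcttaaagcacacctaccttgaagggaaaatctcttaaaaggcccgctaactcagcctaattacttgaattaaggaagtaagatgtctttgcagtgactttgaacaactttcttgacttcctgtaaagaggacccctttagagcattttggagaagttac
These windows are chr13:207544059-207544358 for ITGB2, chr3:17858008-17858307 for ITGAL, chr3:17272085-17272384 for ITGAM and chr10:21482734-21483033 for PTPRC. Searched on either strand, GAGGAA occurred once in ITGB2, from base -36, and once in ITGAL, from base -31, and not in ITGAM or PTPRC. Of 19559 promoters of protein-coding genes cut in the same way, 25.9% held it. TATAAA, which did not overlap these matches, was in none of the 4 windows and in 10.9% of all promoters. GC content was 63.3% for ITGB2, 55.7% for ITGAM, 47.7% for ITGAL and 38.0% for PTPRC, against a median of 58.7% over all promoters. A match is only a run of letters in the window, and binding was not measured.

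The libraries held 18438494 to 43477403 counts each (median 29243994), and each member had 507 to 74317 counts in a sample. Levels are CPM, the counts as a share of the library's counts, scaled by TMM factors, which adjust for differences in library composition. The sorted groups carried their own markers. The summed level of 6 microglial genes (TMEM119, P2RY12, CX3CR1, TREM2, GPR34 and SALL1) was 2313 to 4324 CPM in microglia, 50.9 to 75.7 CPM in alveolar macrophages and 133 to 214 CPM in tissue. CD163, MRC1 and ADGRE1 together had 616 to 1083 CPM in alveolar macrophages and 0.149 to 31.1 CPM in microglia, with ADGRE1 at 0 in every microglia sample. MARCO, the other gene of that list, was at 0 in the macrophages too. The oligodendrocyte gene MOG had 3.85 to 279 CPM in microglia and 326 to 702 CPM in tissue. Astrocyte (AQP4, GFAP), neuron (SYT1, SNAP25) and endothelial (CLDN5, PECAM1) genes summed to 5.29 to 59.2, 0.416 to 98.0 and 2.05 to 19.4 CPM in microglia. In tissue these sums were 2121 to 3050, 1363 to 1539 and 44.1 to 54.8 CPM.

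ITGAM, which encodes the chain that gives complement receptor 3 its specificity, was the member in which microglia stood highest above alveolar macrophages. Its lowest, median and highest levels were 639, 799 and 895 CPM in cerebellar, 572, 763 and 828.6 CPM in frontal cortex and 639, 755 and 977 CPM in hippocampal microglia. The 3 macrophage samples had 123, 145 and 185 CPM. Tissue samples had 22.8, 25.1, 28.5 and 28.6 CPM. The levels therefore fell into 3 ranges that did not overlap, microglia above macrophages above tissue, and the regions lay inside each other's range. By mean CPM it ranked 100 among all genes counted in the hippocampal microglia, 1051 in the alveolar macrophages and 6661 in the tissue.

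PTPRC had its highest level in alveolar macrophages, at 1346, 1352 and 1624 CPM. In microglia its lowest, median and highest levels were 440, 591 and 666 CPM in the cerebellum, 452, 592 and 841 CPM in the frontal cortex and 572, 621 and 727 CPM in the hippocampus. In tissue it had 17.0, 17.2, 20.0 and 21.1 CPM. Every macrophage sample was above every microglia sample, which were in turn above every tissue sample, so that its order across cell types was not that of ITGAM. It ranked 41 by mean CPM in macrophages and 131 to 139 in the microglia groups.

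ITGB2, the common beta chain, varied less between the sorted cell types. Alveolar macrophages had 455, 579 and 580 CPM. Its lowest, median and highest levels were 453, 688 and 1046 CPM in cerebellar, 526.3, 668 and 765 CPM in frontal cortex and 632, 746 and 772 CPM in hippocampal microglia. The cerebellum held both the lowest (pig 12902) and the highest (pig 12599) microglial value, with an SD of 165 CPM against 46.6 CPM in the hippocampus. Tissue had 16.0, 18.3, 18.4 and 20.2 CPM.

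ITGAL, the LFA-1 alpha chain known best from lymphocytes, was the member with a regional difference. In cerebellar microglia the lowest, median and highest levels were 269, 357 and 439 CPM. In the frontal cortex they were 193, 220 and 279 CPM, and in the hippocampus 223, 304 and 365 CPM. Macrophages had 314, 334 and 341 CPM, within the range of cerebellar and hippocampal microglia and above every frontal cortex sample. Tissue had 16.9, 18.8, 20.3 and 23.2 CPM.

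**Figure D1:**
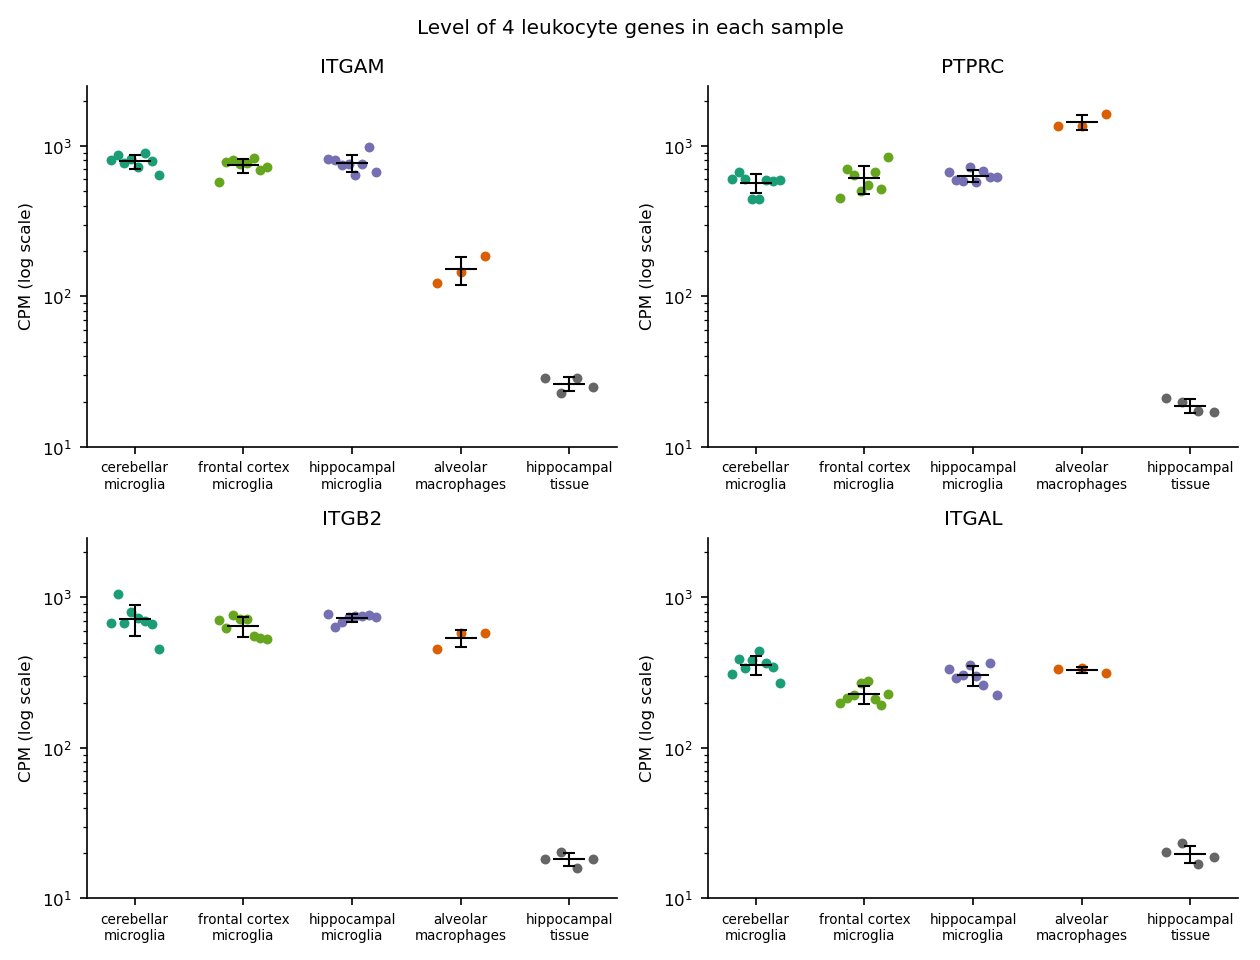
Level of each gene in CPM on a log axis, 1 point per sample, in microglia of 3 regions (n = 8 each), alveolar macrophages (n = 3) and hippocampal tissue (n = 4), with bars for the mean ± SD. ITGAM is at 123 to 185 CPM in macrophages, below all microglia, and PTPRC at 1346 to 1624 CPM, above them.

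Levels can be compared between genes only per length, and per kilobase of annotated exons the order of the members changed with the cell type. In microglia (n = 24) the levels were 238 ± 39.3 CPM per kb for ITGB2, 132 ± 15.1 for ITGAM, 116 ± 18.1 for PTPRC and 57.0 ± 13.2 for ITGAL (mean ± SD). In alveolar macrophages PTPRC led with 278 ± 30.7 CPM per kb, before ITGB2 with 184 ± 24.6, ITGAL with 63.5 ± 2.69 and ITGAM with 26.02 ± 5.39 (n = 3). In tissue all 4 lay between 3.63 and 6.22 CPM per kb. Of the per-length level of both alpha chains together, ITGAM held 59.5 to 77.8% in microglia (median 70.2%), 24.8 to 34.5% in macrophages (median 27.5%) and 46.9 to 60.1% in tissue (median 55.1%). CD11b message thus outweighed CD11a message in every microglia sample and was outweighed by it in every macrophage sample. The alpha chain levels added up to 80.7 ± 11.98% of that of ITGB2 in microglia, 49.2 ± 5.12% in macrophages and 135 ± 13.1% in tissue. The highest microglia sample had 105%. These sums cover ITGAM and ITGAL alone and leave out any other alpha chain that pairs with ITGB2, such as that of ITGAX, which is not analysed here. Exon lengths were those of RefSeq while the counts were made on Ensembl genes, so that comparisons between genes depend on the lengths taken.

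The comparison of microglia with alveolar macrophages asks how the brain's macrophages differ from those of another tissue. ITGAM was 5.08-fold higher in microglia, a log2 fold change of 2.34 (SE 0.14, edgeR's quasi-likelihood test, adjusted p = 1.67e-14). PTPRC was 2.39-fold lower (log2 fold change -1.26, SE 0.12, adjusted p = 2.54e-10 in the same test). At an adjusted p under 0.01, 23.5% of the 11633 genes tested were called higher and 24% lower, and groups without overlap were found for 14.3% and 17.3%, so that such calls were common. ITGB2 did not pass, at a log2 fold change of 0.37 (SE 0.14, 95% interval 0.08 to 0.66, adjusted p = 0.0254). Without the cerebellar sample of pig 12902, its lowest value, it passed (log2 fold change 0.45, adjusted p = 0.00395). ITGAL did not pass either, at -0.18 (SE 0.12, 95% interval -0.43 to 0.07, adjusted p = 0.213). The median log2 fold change over all genes tested was 0.06.

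Each region set against the macrophages on its own, a choice made after seeing the data, gave like values for ITGAM (log2 fold change 2.30 to 2.39) and PTPRC (-1.35 to -1.18). For ITGAL the values differed with the region, at 0.11 in the cerebellum (adjusted p = 0.518), -0.11 in the hippocampus (adjusted p = 0.504) and -0.54 in the frontal cortex (adjusted p = 0.00142, edgeR). Hence the mean over regions joins a called difference with values that were not called and have opposite signs. In the 2 pigs that gave both hippocampal microglia and macrophages, ITGAM was higher in the microglia by 2.37 and 2.39 on the log2 scale and PTPRC lower by a log2 difference of -0.98 and -1.24.

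The gates bear on these values. Microglia were selected for high CD11b and low CD45, the products of ITGAM and PTPRC, and macrophages for neither, so that for these genes cell type and gate cannot be told apart. Lymphocyte markers moved with the macrophage group. The summed T cell markers CD2, CD3D, CD3E and CD8A had 542 to 1110 CPM in macrophages against 14.9 to 73.4 CPM in microglia, where most of the sum was CD2. The 4 B cell markers had 301 to 440 CPM in macrophages against 32.0 to 169 CPM, nearly all CD79A, with CD79B at 0 in every microglia sample. The neutrophil markers CSF3R, CXCR2 and MPO had 114 to 270 CPM against 1.16 to 38.2 CPM, with MPO at 0 in either group. Lymphocytes carry PTPRC and ITGAL and largely lack ITGAM, and the part of these markers in the differences was not tested. In the macrophages of pigs 12829, 12821 and 12984 the T cell sum was 1110, 806 and 542 CPM. PTPRC was at 1346, 1352 and 1624 CPM in these samples and ITGAL at 341, 334 and 314 CPM. With 3 samples it cannot be told whether these levels go together.

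**Figure D2:**
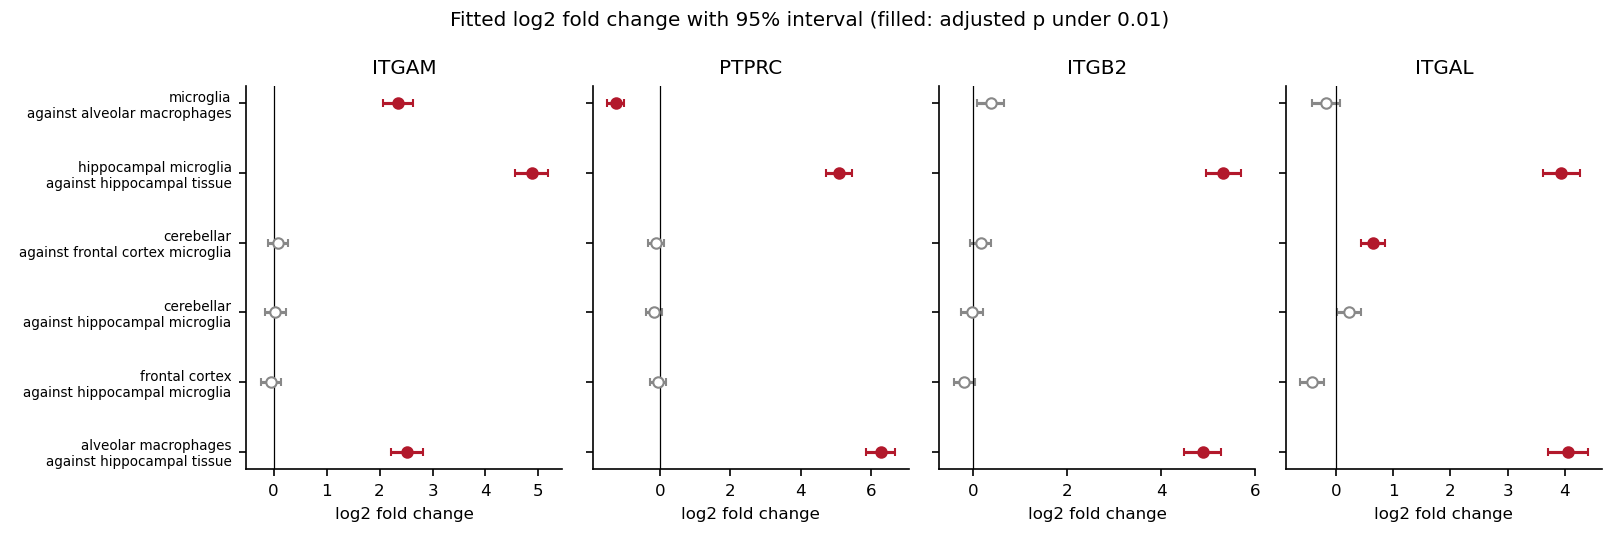
Fitted log2 fold change of each gene (x axis) with its 95% interval in 6 comparisons, filled where the adjusted p was under 0.01. ITGAM and PTPRC lie on opposite sides of 0 against macrophages, and ITGAL alone is filled in a regional comparison.

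A ratio of 2 genes in 1 library does not depend on how the libraries are scaled. PTPRC had 0.538 to 1.16 counts per ITGAM count in microglia (median 0.785), 8.78, 9.30 and 10.97 in macrophages and 0.602 to 0.875 in tissue. Every macrophage library had far more PTPRC than ITGAM counts, which no other library did, and the difference between microglia and macrophages was 12.3-fold (log2 difference -3.62, p = 0.000684, the smallest that the two-sided exact permutation test can give here, adjusted p = 0.00256 over 15 tests). For ITGAL to ITGAM the ratio was 0.255 to 0.609 in microglia and 1.70, 2.36 and 2.71 in macrophages, a log2 difference of -2.55 (adjusted p = 0.00256, same test). ITGAM to ITGB2 was 0.812 to 1.49 in microglia and 0.249, 0.271 and 0.319 in macrophages, a log2 difference of 1.99 (adjusted p = 0.00256). Microglia of several regions from 1 pig are not independent. With hippocampal microglia alone all 3 differences kept their direction and passed at 0.05.

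Between hippocampal microglia and whole hippocampus the ratio of the alpha chains differed, while that of the sort markers did not pass the test. PTPRC to ITGAM differed by 0.21 on the log2 scale between hippocampal microglia and hippocampal tissue (exact permutation test, adjusted p = 0.212). ITGAL to ITGAM, in contrast, was 0.594 to 1.01 in tissue, above every hippocampal microglia sample (0.330 to 0.471), with a log2 difference of -0.93 (adjusted p = 0.0101). ITGAM to ITGB2 was 1.13 to 1.79 in tissue and 0.843 to 1.28 in hippocampal microglia, with overlap between the groups and a log2 difference of -0.46 (adjusted p = 0.0346). That last call was lost without any 1 of 9 samples (hippocampal microglia of pigs 12750, 12781, 12817, 12821, 12829 and 12872 and tissue of pigs 12821, 12847 and 12872), with log2 differences of -0.58 to -0.36 and adjusted p from 0.026 to 0.104 over all 12 omissions.

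**Figure D3:**
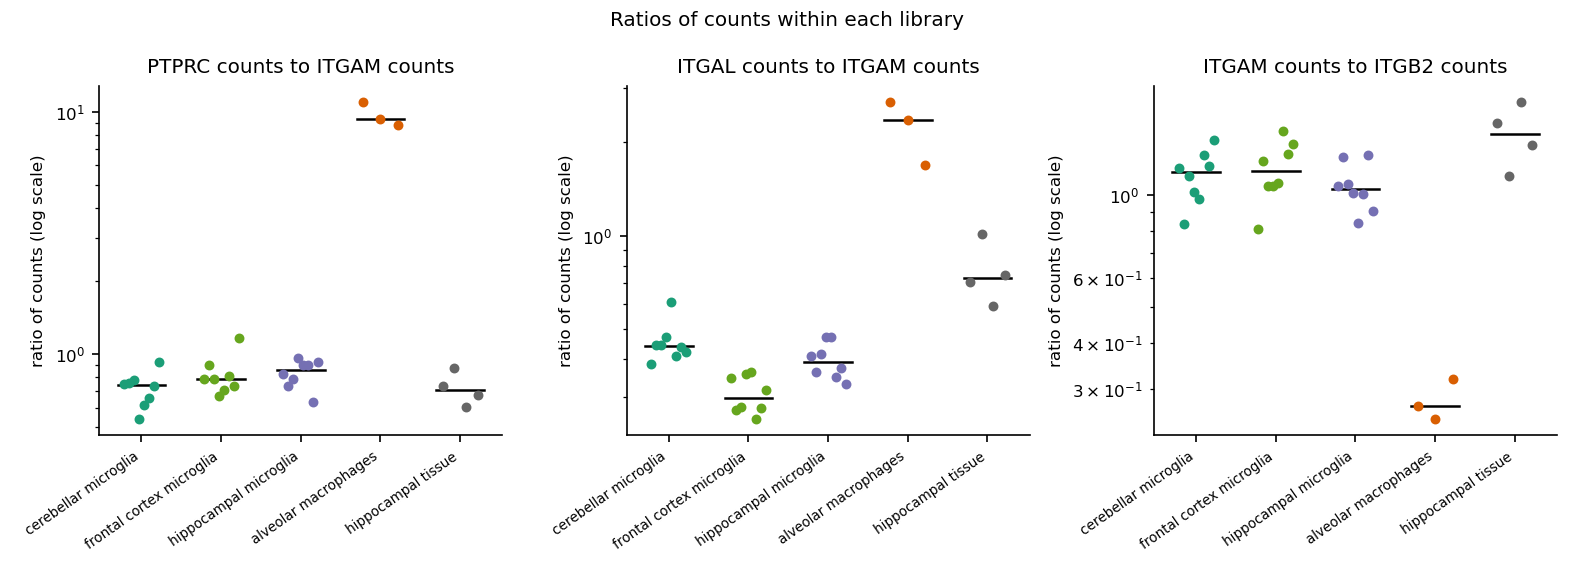
Ratio of counts within each library on log axes, 1 point per sample with a line at the group median, for PTPRC to ITGAM, ITGAL to ITGAM and ITGAM to ITGB2. Macrophage samples stand apart from all microglia in every panel, and tissue lies above hippocampal microglia for ITGAL to ITGAM.

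Hippocampal tissue was compared with microglia of the same region to find what sorting enriched. All 4 members were higher in the microglia, without overlap. The fold was 29.3 for ITGAM (log2 fold change 4.87, SE 0.15), 33.7 for PTPRC (5.08, SE 0.18), 40.1 for ITGB2 (5.33, SE 0.19) and 15.4 for ITGAL (3.94, SE 0.16), with adjusted p from 1.23e-20 to 1.04e-18 in edgeR's test. In this comparison 32.2% of all genes tested were called higher, 37% were called lower and 31% were higher without overlap, and the median over all genes was -0.08. In each of the 4 pigs that gave both samples every member was higher in the microglia, by 3.50 to 5.57 on the log2 scale. In bulk tissue fewer cells of a type and less RNA per cell cannot be told apart. The gate used the products of ITGAM and PTPRC and not those of ITGB2 and ITGAL, and its part in the differences was not tested.

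Tissue levels were 3.41% of those in hippocampal microglia for ITGAM, 2.96% for PTPRC, 2.49% for ITGB2 and 6.50% for ITGAL. The microglial genes TMEM119, P2RY12, CX3CR1 and TREM2 had 2.16 to 3.21%, GPR34 had 4.89% and SALL1, a transcription factor gene, 21.9%. ITGAL therefore kept more of its level in tissue than the other members did. T cell markers summed to 1.48 to 2.24 CPM in tissue, against 16.9 to 23.2 CPM of ITGAL. The 4 B cell markers summed to 17.3 to 29.2 CPM, and their part in the ITGAL level was not tested. Alveolar macrophages were also above hippocampal tissue for all 4 members without overlap, where 28.9% of genes were called higher and 37.6% were higher without overlap. The log2 fold changes were 6.26 for PTPRC, 4.88 for ITGB2, 4.06 for ITGAL and 2.52 for ITGAM.

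Regional comparisons within microglia ask whether cells of 1 type differ between brain areas. Of the 4 members only ITGAL passed the F test over the 3 regions (adjusted p = 0.00087), which 2.03% of all genes passed. With the pig as a replicate block in edgeR its adjusted p was 0.0283, above the threshold of 0.01, while the block in limma left it at 0.000156. ITGAM, PTPRC and ITGB2 had adjusted p of 0.790, 0.533 and 0.442. ITGAL was 1.56-fold higher in cerebellar than in frontal cortex microglia (log2 fold change 0.65, SE 0.10, 95% interval 0.44 to 0.86, adjusted p = 0.000265). Calls in that direction covered 0.894% of genes and calls in the other 0.971%, and the groups overlapped by 1 cerebellar sample, that of pig 12902. The hippocampus lay between, at a log2 fold change of 0.22 below the cerebellum (SE 0.10, adjusted p = 0.221) and 0.42 above the frontal cortex (SE 0.10, adjusted p = 0.0257), and neither step passed. DESeq2 called the latter (adjusted p = 0.00616). For ITGAM, PTPRC and ITGB2 the 95% intervals of all regional differences lay between -0.41 and 0.39 on the log2 scale, so that changes of this size were not resolved.

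Within pigs the ITGAL difference went the same way each time. In 6 pigs with cerebellar and frontal cortex microglia it was higher in the cerebellum in 6 of 6, by 0.23 (pig 12902), 0.34 (pig 12750), 0.47 (pig 12758), 0.80 (pig 12847), 0.85 (pig 12891) and 0.98 (pig 12599) on the log2 scale. It was higher in the cerebellum than in the hippocampus in 4 of 4 pigs, by 0.01 to 0.55, and lower in the frontal cortex than in the hippocampus in 3 of 3, by a log2 difference of -0.79 to -0.06. PTPRC was lower in the cerebellum than in the hippocampus in 4 of 4 pigs (log2 difference -0.43 to -0.07), but its values over all pigs did not pass the test (-0.17, adjusted p = 0.414). Set against ITGAM, ITGAL was at 0.385 to 0.609 counts per ITGAM count in the cerebellum and 0.255 to 0.361 in the frontal cortex, without overlap (log2 difference 0.55, p = 0.000155, the smallest the exact permutation test can give here, adjusted p = 0.00233). The frontal cortex ratio was also below that of the hippocampus (log2 difference -0.37, adjusted p = 0.00839), whereas cerebellum and hippocampus did not differ past 0.05 (0.19, adjusted p = 0.121).

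Regional levels of lymphocyte and border macrophage markers follow, and their part in the ITGAL difference was not tested. The median T cell sum was 35.1 CPM in cerebellar, 27.0 CPM in frontal cortex and 44.7 CPM in hippocampal microglia. The median sum of lung or border macrophage markers was 2.48, 3.49 and 3.00 CPM, the reverse of the ITGAL order. Most of the T cell sum was CD2, with its highest mean in the hippocampus (43.1 CPM). There the means of CD3D (1.04, 2.30 and 0.0324 CPM), CD3E (0.295, 1.07 and 0.0320 CPM) and CD8A (1.03, 2.50 and 0.476 CPM) were lowest. Within the T cell list CD3D was called higher in the cerebellum (log2 fold change 4.87) and the frontal cortex (6.003) than in the hippocampus. Neither call was kept with the pig as a block in edgeR (adjusted p = 0.324 and 0.379). However, that fit called only 0 and 1 of all 11633 genes in these comparisons, so that the loss says nothing particular to CD3D. The B cell sum, nearly all CD79A, had medians of 78.1, 67.8 and 66.8 CPM. The oligodendrocyte gene MOG had mean levels of 25.9 ± 23.2, 70.1 ± 95.3 and 16.5 ± 16.8 CPM (SD, n = 8 each), highest in the region with the lowest ITGAL, and its part in the difference was not tested. PTPRC to ITGAM and ITGAM to ITGB2 showed no regional difference past 0.05. Without hippocampal microglia of pig 12847 or cerebellar microglia of pig 12902, PTPRC to ITGAM passed between cerebellum and hippocampus (adjusted p = 0.0379 and 0.046), against 0.121 with all samples.

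**Figure D4:**
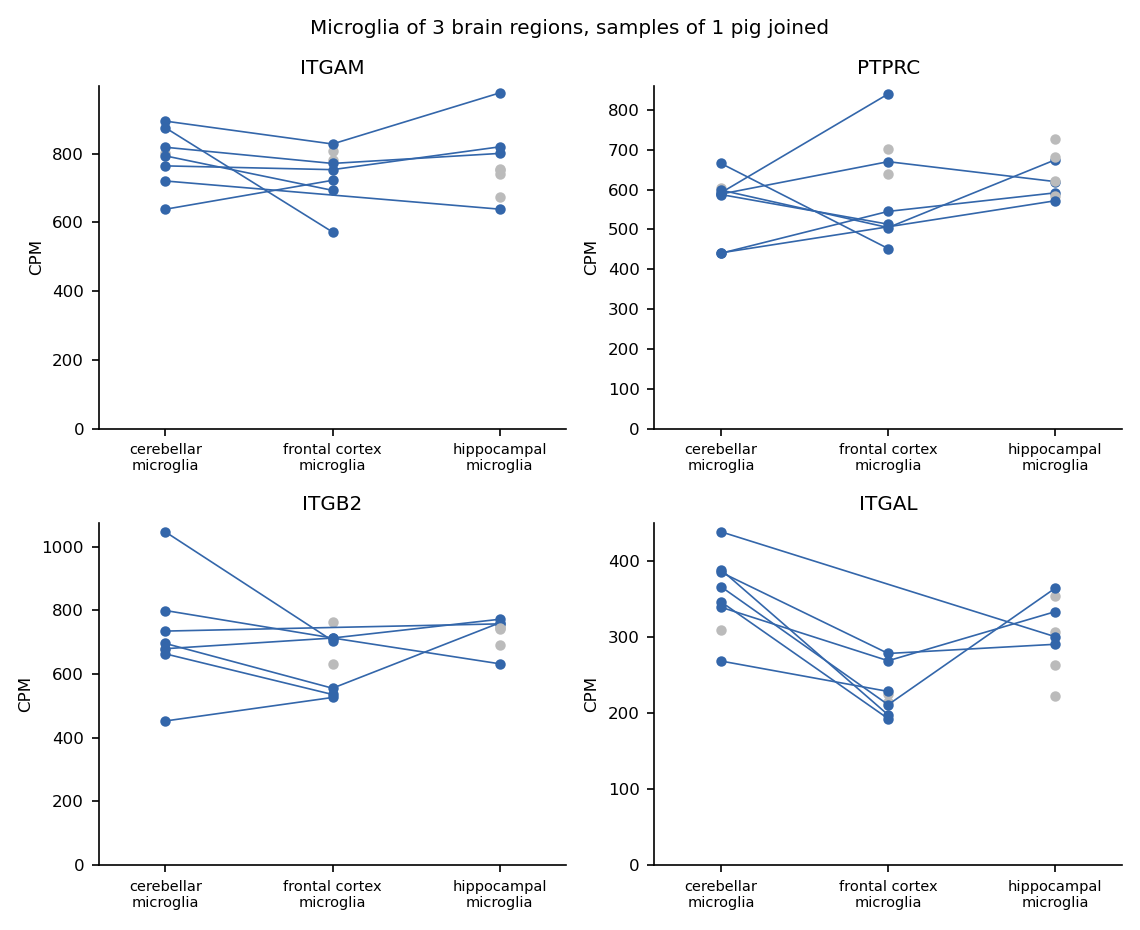
CPM of each gene in microglia of 3 regions, with lines joining samples of the same pig and grey points for pigs with 1 region. ITGAL falls from cerebellum to frontal cortex in all 6 joined pigs, while the lines of the other genes run in either direction.

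Within a region the members did not vary together in a way that passed a test. Of 18 correlations of log2 CPM (6 pairs of members in 3 regions, 8 pigs each) none had an adjusted p under 0.05 by exact permutation. The highest were in the cerebellum, where ITGB2 and ITGAL had Pearson's r = 0.761 (permutation p = 0.0391, adjusted p = 0.421) and Spearman's rho = 0.857 (permutation p = 0.0107, adjusted p = 0.193). Leaving out the 2 pigs farthest from the median ITGB2 level gave r = 0.643. ITGAM and ITGB2 had r = 0.763 there (adjusted p = 0.421), with rho = 0.571 (adjusted p = 0.693), and r = 0.689 without the 2 farthest pigs. Leaving out single pigs moved r between 0.466 and 0.887 for ITGB2 with ITGAL and between 0.422 and 0.884 for ITGAM with ITGB2.

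The genes whose levels were most like each member's are given as a description, because points share pigs, cell types and libraries. Over the 31 samples ITGAM was closest to CAPN3, a calpain protease gene (Pearson's r = 0.994), ENTPD1, the gene of the ectonucleotidase CD39, LY75, SLC49A3 and NLRP3, an inflammasome sensor gene, all with r of at least 0.990. ITGB2 was closest to SPI1, which encodes PU.1 (r = 0.995), followed by IRF5, DOCK8, RASAL3 and ARID5A. PTPRC was closest to ACSL5 (r = 0.984), PLCG2, DOCK2, TMEM131L and MOB1A, and ITGAL to SLC1A5 (r = 0.987), RPS6KA1, PIK3R5, GIMAP1 and ST6GAL1. These values are set mainly by the gap between tissue and sorted cells. Over the 24 microglia samples, with region means removed, the closest genes were LOC100627463, PIK3AP1 and SLA-8 for ITGAM (r of 0.786 to 0.814), SYNCRIP, CTTNBP2NL and ERP44 for PTPRC (0.827 to 0.865), ATP2A3, SIPA1 and AXL for ITGB2 (0.924 to 0.942), and ATG4D, DOK1 and ACSF3 for ITGAL (0.805 to 0.845). Among the members themselves r over the same 24 samples was 0.51 for ITGB2 with ITGAL, 0.51 for ITGAM with ITGAL, 0.35 for ITGAM with PTPRC, 0.32 for ITGAM with ITGB2, -0.13 for PTPRC with ITGAL and -0.17 for PTPRC with ITGB2.

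The other integrin subunits were taken as a list of 22 genes, of which 14 were tested. Against alveolar macrophages, where 23.5% of all genes were called higher in microglia and 24% lower, 5 were higher, 6 were lower and 3 were not called, with a median log2 fold change of -1.21 against 0.06 over all genes. ITGA4, the alpha4 chain of VLA-4 by which leukocytes enter tissues, had 3.59 CPM in microglia and 508 CPM in macrophages (log2 fold change -8.56, adjusted p = 5.91e-13). It passed the filter on levels through the macrophages alone, so that its direction was largely set by it. ITGA1, a collagen receptor chain, had 1.52 against 60.6 CPM (-6.47, adjusted p = 2.62e-06) and ITGA3, a laminin receptor chain, 0.349 against 16.3 CPM (-6.23, adjusted p = 1.95e-05). ITGA7 had no count in the 3 macrophage samples and 1.35 CPM in microglia, at least 56.2-fold higher when 3 counts over the group are taken as the floor. Its median in microglia was 0.381 CPM, with 6 of 24 samples at 0, against a mean of 36.5 CPM in tissue. Tissue was the only group through which it passed the filter. The part of other brain cells in its level was not tested. The others of the 5 higher genes were ITGAV, with 289 against 22.8 CPM (log2 fold change 3.65), ITGB5, with 197 against 24.1 CPM (3.02), ITGA9 (1.32) and ITGAE (0.95). ITGAV and ITGB5 encode chains that pair with each other in a vitronectin receptor. The partners of ITGA4, named here after their values were seen, were lower in microglia too, ITGB7 by a log2 fold change of -4.02 and ITGB1 by -1.57. ITGA10 had the largest adjusted p of the list (0.633). With the pig as a replicate block in edgeR 5 of these 11 calls were lost, those of ITGA1 (adjusted p = 0.0140), ITGA3 (0.0217), ITGA7 (0.0464), ITGA9 (0.0595) and ITGAE (0.0895).

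Integrin signalling proteins inside the cell formed a list of 15 genes, all tested. Against macrophages 2 were higher in microglia (23.5% of all genes), 9 lower (24% of all genes) and 4 not called, with a median of -0.80. CYTIP, a cytohesin-binding protein gene, had 7.70 CPM in microglia against 556 CPM (log2 fold change -6.29, adjusted p = 7.21e-16). RASGRP2, an exchange factor for RAP1, had 0.980 against 43.9 CPM (-5.71, adjusted p = 2.11e-06). FLNA, the actin crosslinker filamin A that binds integrin tails, had 40.7 against 1462 CPM (-5.44, adjusted p = 2.54e-12), and SKAP1, a T cell adaptor gene, 6.91 against 83.8 CPM (-3.60). The filter on levels asks for over 10 CPM throughout a group. Microglia means of CYTIP, RASGRP2 and SKAP1 were below that, so that their direction may have been largely set by the filter. The counts and the median of this list include them. The 2 higher genes were SKAP2 (1.29), which is the related adaptor of myeloid cells, and APBB1IP (1.19), the gene of RIAM, which links RAP1 to talin. The block by pig took away the calls of RASGRP2 (adjusted p = 0.0176) and FERMT3 (0.0216). VAV1 had the largest adjusted p (0.206). Talin (TLN1) itself was at 1212 and 1475 CPM in microglia and macrophages and did not pass (adjusted p = 0.0749, named after its values were seen).

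Substrates and partners of CD45 formed a list of 16 genes, all tested, of which 2 were higher in microglia than in macrophages, 9 lower and 5 not called (median -0.80), beside the same 23.5% and 24% of all genes. The lowest were LGALS1, the gene of the CD45-binding lectin galectin-1 (0.27 against 93.4 CPM, log2 fold change -10.16), and 3 genes of lymphocyte signalling, ZAP70 (0.498 against 202 CPM, -9.94), LCK (0.470 against 125 CPM, -9.43) and PTPN22 (0.494 against 62.7 CPM, -8.15), with adjusted p from 5.30e-13 to 4.92e-08. These are the kinases and the phosphatase of T cell receptor signalling, and the T cell marker sums given above moved with them. All 3 passed the filter on levels through the macrophages alone, so that their direction was largely set by it. The counts and the median of this list include them. Higher was SRC (1.57), the gene of the kinase that names the Src family. With the block LGALS1 had an adjusted p of 0.0120 in edgeR and was not called, and the other 10 calls were kept. PTPN6, the gene of the phosphatase SHP-1, had the largest adjusted p (0.730), at 272 and 284 CPM.

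Ligands of the ITGB2 integrins made a list of 13 genes, 8 of them tested, with 3 higher in microglia, 3 lower and 2 not called (median 0.42), against 23.5% and 24% over all genes. C3, whose fragment iC3b is bound by complement receptor 3, had 3554 CPM in microglia and 554 CPM in macrophages (log2 fold change 2.62, adjusted p = 1.59e-12). ICAM5, known as an adhesion molecule of neurons, had 11.5 and 0.687 CPM (3.98, adjusted p = 8.57e-08), and F11R, the gene of JAM-A, 51.3 and 19.8 CPM (1.36, adjusted p = 0.00317). In hippocampal microglia ICAM5 was lower than in hippocampal tissue (log2 fold change -4.24). The part of other brain cells in its microglial level was not tested. Lower in microglia were THY1 (-3.13), ICAM2 (-1.36) and ICAM1 (-0.78), the last being the main partner of LFA-1. The ICAM1 call was lost with the block (adjusted p = 0.0217). JAM3 had the largest adjusted p (0.978).

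Against hippocampal tissue 32.2% of all genes were called higher in hippocampal microglia and 37% lower. Of the activation genes 13 of 15 were higher in hippocampal microglia and 2 lower (median 2.35), led by VAV1 (log2 fold change 5.04), FYB1 (4.83) and FERMT3 (4.29), the gene of the leukocyte kindlin. RASGRP2 (-4.51) and FLNA (-3.03) were the lower ones, as against macrophages, and RASGRP2 was not called with the block (adjusted p = 0.0114). Of the CD45 list 9 of 16 were higher, 3 lower and 4 not called (median 1.86), led by PTPRCAP, the gene of a CD45-associated protein (5.01). FYN was lower (-5.40, at 4.43 against 187 CPM), as were ZAP70 (-4.68) and LGALS1, which had no count in 8 microglia samples and 14.3 CPM in tissue, at least 1089-fold lower by the same floor. JAK1 had the largest adjusted p (0.776). Of the other integrin subunits 5 were higher, 7 lower and 2 not called (median -1.74). The higher ones were ITGB7 (4.13), ITGAE (4.08), ITGB5 (1.42), ITGAV (1.39) and ITGB1 (0.72), and the lowest were ITGA3 (-7.88), ITGA7 (-7.54), ITGA1 (-6.97) and ITGB8 (-6.74), while ITGA10 had the largest adjusted p (0.414). The 8 ligands split evenly, with THY1 (-8.56), JAM2 (-4.98), ICAM5 (-4.24) and JAM3 (-4.12) lower. The higher ligands were C3 (5.08), ICAM1 (3.94), ICAM2 (2.66) and F11R (2.51). The median over all genes was -0.08. In alveolar macrophages against tissue 14 of 15 activation genes, 13 of 16 genes of the CD45 list, 5 of 14 other subunits and 4 of 8 ligands were called higher, as were 28.9% of all genes.

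**Figure D5:**
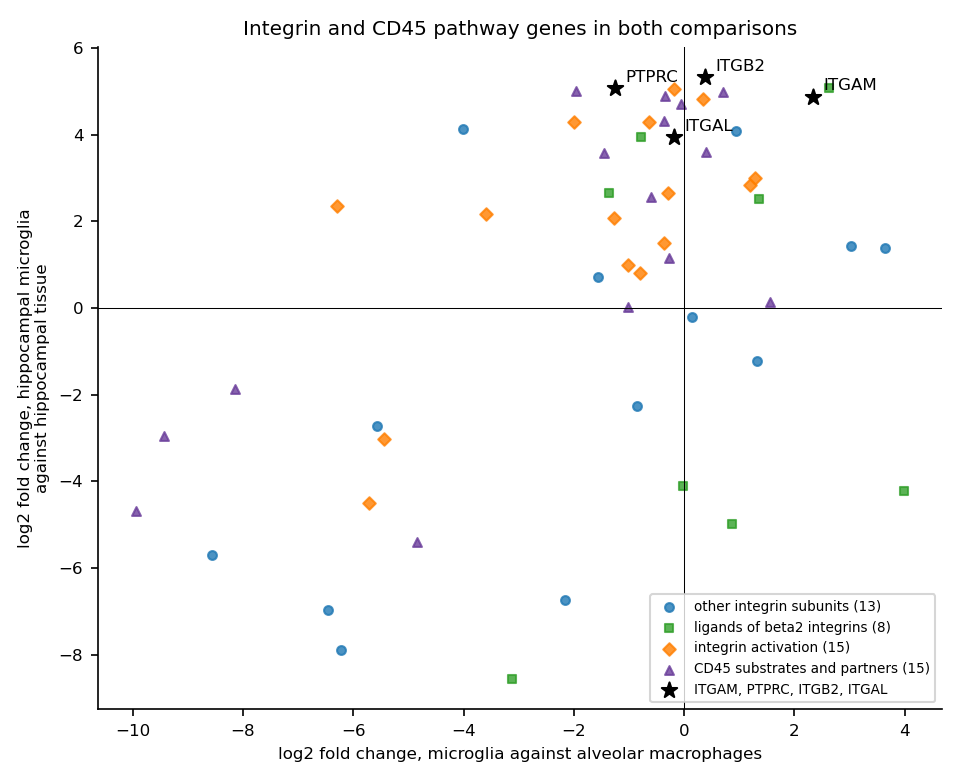
Log2 fold change of microglia against alveolar macrophages (x axis) and of hippocampal microglia against hippocampal tissue (y axis) for 51 genes of 4 lists, with ITGAM, PTPRC, ITGB2 and ITGAL as stars. Hippocampal microglia enter both axes, and ITGA7 and LGALS1, listed at 0 in a group, are not drawn. The stars lie between 3.94 and 5.33 on the y axis and between -1.26 and 2.34 on the x axis.

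Between cerebellar and frontal cortex microglia 2 genes of these lists were called higher and 3 lower, of 53 tested, where 0.894% and 0.971% of all genes were. C3 was 4830 CPM in cerebellar and 2363 CPM in frontal cortex microglia (log2 fold change 1.03, adjusted p = 7.54e-06), in the same direction as ITGAL. CD22, a sialic acid-binding receptor gene that CD45 can engage, was higher in the cerebellum as well (1.02, adjusted p = 0.00683). ITGA9 (-1.43), ITGB1 (-0.58) and RAP1B (-0.52) were lower there than in the frontal cortex, and the other 48 of the 53 genes tested were not called. ITGA6 was higher in the cerebellum than in the hippocampus (1.62, adjusted p = 0.00235), as 0.438% of all genes were. ITGA4 was at 3.97 CPM in cerebellar, 6.73 CPM in frontal cortex and 0.0805 CPM in hippocampal microglia, and was called between the hippocampus and each of the other regions (adjusted p = 0.00133 and 0.000766). ZAP70 was called between frontal cortex and hippocampus at under 1 CPM in either group, and 0.189% of all genes were called higher in the frontal cortex in that comparison. With the pig as a replicate block in edgeR the calls of C3, ITGA9 and RAP1B between cerebellum and frontal cortex were kept. Those of CD22 (adjusted p = 0.0118), ITGB1 (0.0347), ITGA6 (0.0347), ITGA4 (0.203 and 0.210) and ZAP70 (0.627) were lost. Against the hippocampus the block fit called 0 of all genes for the cerebellum and 1 for the frontal cortex. The losses of ITGA6, ITGA4 and ZAP70 therefore say nothing particular to these genes.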

How the data were processed

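Stranded total RNA libraries were made from sorted cells and whole tissue. For the deposited table the authors trimmed reads of 50 bp (BBtools 38.67), mapped them by Hisat2 to Sscrofa11.1 with the annotation of Ensembl release 99, and had StringTie give raw counts for each gene and sample, which were not normalized. Kept for testing here were 11633 of 31907 genes, those above 10 CPM throughout 1 or more groups. For a gene kept through 1 group alone, the direction against that group was largely set by this filter. Counts and medians of the lists include such genes. Counts were scaled by TMM (factors 0.826 to 1.16, library sizes of the kept genes), and a robust quasi-likelihood model with a mean for each group was fitted by edgeR (version 4.0.16, R version 4.3.3). The filter and the threshold of 0.01 on Benjamini-Hochberg adjusted p follow the study's methods, which name limma-voom for the test. Log2 CPM uses a prior count of 2.

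Ratios and correlations were tested by exact two-sided permutation (15 and 18 tests, threshold 0.05 on adjusted p) in Python 3.11.15 (scipy 1.17.1). Of 96 genes in the lists of pathway and marker genes 92 were matched to an identifier, and some of these are not reported here by name. Named list genes are at most 4 per list and comparison, those with the largest fitted change past 0.01, and that with the largest adjusted p, and for likeness the 5 and 3 genes with the highest r. Where a count was 5 or fewer, its genes are also named. The members and lists were chosen with earlier results of these data known. The floor for genes without counts is 3 counts, which covers counting error only, since PCR copies are not separate molecules.

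Alternatives were RLE or no factors, filterByExpr or no filter, DESeq2 1.42.0, limma-voom (limma 3.58.1), only the groups compared, pig as a replicate block, CPM without log for correlations, and each sample left out. Same-numbered samples were taken to come from the same pig. With group means removed their correlation averaged 0.0791 over 25 pairs (-0.374 to 0.433). Between pigs it averaged -0.00499 over 347 pairs (-0.573 to 0.645), a range that encloses the former. By the same tags limma estimated a within-pig correlation of 0.205. No 2 samples of a group were copies (lowest chi-square per degree of freedom 18.9). The fits and the permutation tests were tested on simulated data.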

Additional observations from a re-analysis of the deposited data

Results flagged for a closer look

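Among 28 groups of values searched for a single sample far from the others, 2 held one, by a criterion that chance meets in about 1 of 20 groups. In frontal cortex microglia the sample of pig 12902 had a PTPRC to ITGAM count ratio of 1.16, above the other 7 samples of its group, with the highest PTPRC level of all microglia (841 CPM). In cerebellar microglia the sample of pig 12821 had an ITGAL to ITGAM count ratio of 0.609, with the highest ITGAL level of all microglia (439 CPM). The cause of either value was not tested.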

How the results depend on the processing

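Of 264 values of single members under settings other than omitted samples, 257 kept their direction and their side of the threshold. Without normalization factors the log2 fold change of frontal cortex against hippocampal microglia was 0.047 for ITGAM and 0.050 for PTPRC (-0.06 and -0.06 with them), and neither was called. With the replicate block for pig, edgeR put ITGB2 at 0.035 between cerebellum and hippocampus (-0.02 without it), not called, and gave the ITGAL F test an adjusted p of 0.0283. The paired fits changed no other call of a member or a ratio, and the calls of pathway genes that the edgeR block removed stand beside them, apart from ITGA5 between macrophages and tissue (adjusted p = 0.0163). DESeq2 called ITGAL between frontal cortex and hippocampus, at -0.39. Against macrophages ITGAL was at 0.11 for cerebellar and -0.54 for frontal cortex microglia alone.

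Omitting single samples gave log2 differences of 0.27 to 0.48 for ITGB2 against macrophages, -0.00070 to 0.12 for ITGAM and -0.12 to 0.096 for ITGB2 between cerebellum and hippocampus, and -0.090 to 0.050 for ITGAM and -0.081 to 0.045 for PTPRC between frontal cortex and hippocampus. For ratios it gave -0.27 to -0.16 (PTPRC to ITGAM, cerebellum against hippocampus), -0.10 to 0.0088 (PTPRC to ITGAM, frontal cortex against hippocampus), -0.12 to 0.0086 (ITGAM to ITGB2, cerebellum against frontal cortex) and -0.58 to -0.36 (ITGAM to ITGB2, hippocampal microglia against tissue).

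Correlations changed sign on CPM without log for PTPRC with ITGB2 in the cerebellum (0.0949), PTPRC with ITGAL in the frontal cortex (-0.0585) and ITGAM with ITGB2 in the hippocampus (0.0318). They did so without normalization factors for ITGAM with ITGAL in the cerebellum (-0.00234), ITGAM with ITGB2 (0.388) and PTPRC with ITGB2 (0.102) in the frontal cortex and ITGB2 with ITGAL in the hippocampus (-0.0870). Omitting a pig moved r from -0.177 to 0.870 (ITGAM and ITGAL) and -0.538 to 0.159 (PTPRC and ITGB2) in the cerebellum, from -0.224 to 0.453 (ITGAM and ITGB2) and -0.279 to 0.221 (PTPRC and ITGAL) in the frontal cortex, and from -0.0751 to 0.443 (ITGAM and PTPRC), -0.329 to 0.235 (ITGAM and ITGB2) and -0.0714 to 0.389 (PTPRC and ITGAL) in the hippocampus. No cause was tested for these changes.

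Counts of called genes over 1.5 times from those behind the percentages were as follows. Genes lower in microglia than macrophages (2794) numbered 4466 with filterByExpr, 4911 with no filter and 1807 with the replicate block, and genes lower than in tissue (4302) 6654 and 7401 with these filters. Higher in cerebellum than frontal cortex (104) were 65 with no filter, 44 in a fit of those groups, 157 by limma-voom, 238 with its block and 202 by DESeq2, and lower (113) 64 with no filter, 66 with the block, 33 in a fit of those groups and 309 by DESeq2. Higher in cerebellum than hippocampus (51) were 84 with filterByExpr, 0 with the block in edgeR (747 at an unadjusted p under 0.05), 32 by limma-voom and 335 by DESeq2, and lower (19) 10 without factors, 12 with filterByExpr, 9 with no filter, 0 with the block (580 unadjusted) and 117 by DESeq2. Higher in frontal cortex than hippocampus (22) were 12 with no filter, 1 with the block, 3 in a fit of those groups, 10 by limma-voom, 13 with its block and 318 by DESeq2, and lower (15) 8 with RLE, 5 without factors or with either filter setting, 0 with the block (387 unadjusted), 2 in a fit of those groups, 31 by limma-voom, 36 with its block and 73 by DESeq2. The F test (236) called 85 genes with the block, 141 without the other groups and 790 by DESeq2.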
